A study of Mus musculus with 9 samples.

Results

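Lung endothelial cells of both Notch-deficient genotypes of the series, DNMAML and Notch1f/f, were compared as 1 pooled set with those of WT mice. All 9 libraries of the series entered, 3 DNMAML and 3 Notch1f/f libraries against 3 WT libraries, chosen by their genotype labels. Each Notch-deficient genotype carried equal weight, and the genes described first are those that moved alike in both.

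Each library was total RNA, depleted of ribosomal RNA, from endothelial cells of C57BL/6 mice 6 weeks old, sorted as DAPI-/CD45-/CD31+ (live cells without the leukocyte antigen CD45 and with the endothelial antigen CD31). DNMAML commonly stands for a truncated, dominant-negative form of Mastermind-like that occupies the Notch and RBPJ complex without activating transcription. Notch1f/f commonly denotes mice in which both copies of Notch1 are floxed. Which recombinase acted, under which promoter, the sex of the mice, and whether replicates are different animals are not stated in the labels. Each group held libraries with and without Y-linked counts, as given below, so each held more than 1 animal. The p-values here rest on spread between libraries, which may be technical in part. The genotypes share no agent or allele named in the labels beyond the strain.

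Notch receptors are cleaved when a ligand on a neighbouring cell binds them, and the freed intracellular part joins RBPJ and Mastermind on DNA to switch on target genes such as those of the Hes and Hey families. In vessels the pathway is known for favouring arterial over venous identity, for limiting the number of sprouting tip cells, and for holding endothelial cells out of the cell cycle. DNMAML acts on transcription downstream of all Notch receptors, and recombination of a floxed Notch1 allele removes 1 of them.

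Total counts were between 15522100 and 27842496 per library. The endothelial gene Cdh5, which encodes VE-cadherin, was measured at 5366 to 6497 CPM in the 6 Notch-deficient libraries and 6142 to 6656 CPM in WT libraries, and Pecam1, which encodes CD31, at 3408 to 4353 CPM in the 6 Notch-deficient libraries and 3604 to 3982 CPM in WT libraries. Levels are read counts scaled to library size (CPM) after scaling of library sizes by the trimmed mean of M values (TMM). They are not divided by gene length, so they compare libraries and not genes. The summed level of 4 Y-linked genes was between 249 and 308 CPM in DNMAML replicates 1 and 3, Notch1f/f replicate 1 and WT replicate 2, and under 1 CPM in the others, so sex was not balanced between the groups. With the level of these genes as a covariate, 110 genes rose and 38 fell in the comparison below.

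Notch1 itself (ENSMUSG00000026923) had 679, 872 and 777 CPM in DNMAML libraries, 70.8, 29.5 and 176 CPM in Notch1f/f libraries and 766, 909 and 811 CPM in WT libraries. Every Notch1f/f library was below every library of the other genotypes, while DNMAML and WT libraries overlapped. Maml1, the gene after whose product the DNMAML peptide is named, had 76.4, 81.99 and 77.1 CPM in DNMAML libraries, 72.1, 69.7 and 83.4 CPM in Notch1f/f libraries and 82.4, 58.3 and 84.4 CPM in WT libraries. The counts of Maml1 do not show the transgene, so they are no check of the DNMAML label.

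The comparison asks which genes differ from WT whichever way Notch was impaired. In the pooled comparison 42 genes rose and 22 fell among 19486 tested, which is 0.216% and 0.113% of the genes and 0.328% in either direction (edgeR quasi-likelihood, adjusted p below 0.05 after Benjamini-Hochberg). Of these 64 genes, 50 moved alike: the log2 difference from WT had the same sign in both genotypes, the smaller was at least 0.5 of the larger, and none of the 6 Notch-deficient libraries overlapped the 3 WT libraries. They were 37 genes that rose, or 0.19% of those tested, and 13 that fell, or 0.0667%. Over all genes tested the 6 Notch-deficient libraries lay above every WT library in 3.33%, below every WT library in 3.01%, and either way in 6.34%. At an unadjusted p below 0.05 in the same edgeR test 2094 genes passed (10.7%), 1099 higher and 995 lower. Both genotypes were set against the same WT libraries, so sameness of direction between them is in part built in. The rule itself fixes the direction of the 50 genes and their lack of overlap with WT, wherever these are given below.

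The counts behind the 2 directions differed in depth. The 37 rising genes had a median WT mean of 8.62 CPM, and 16 of them were under 5 CPM in WT, whereas the 13 falling genes had a median WT mean of 289 CPM, against 8.42 CPM over all genes tested. Of the 50 genes, 34 changed by at least 1 on the log2 scale, 30 upward and 4 downward. The rising genes spanned 1.59-fold to 64.1-fold, and the falling genes 0.637-fold to 0.294-fold. All but 1 of the 50 are protein-coding, the exception being Gm42047, where 72.1% of all genes tested are.

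How many genes passed depended on single libraries. The test called 0 genes without WT replicate 1 (950 higher and 650 lower at an unadjusted p below 0.05; lowest adjusted p = 0.0733) and 0 without WT replicate 2 (923 and 733; lowest adjusted p = 0.115). On all 9 libraries DESeq2 gave 420 higher and 262 lower genes and limma-voom gave 6 and 4. When WT replicate 3 was left out edgeR called 5 higher and 4 lower, and when DNMAML replicate 1 was left out 24 and 7. Leaving out Notch1f/f replicate 1, 2 or 3 gave 222, 36 or 59 higher and 77, 14 or 44 lower genes. Of the 64 genes, 7 remained called when WT replicate 3 was left out, 29 when DNMAML replicate 1 was, and 39 when Notch1f/f replicate 2 was. All 64 kept their direction in every one of these fits. That was largely fixed by their choice from these same libraries, since 57 of them did not overlap between the groups.

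**Figure D1:**
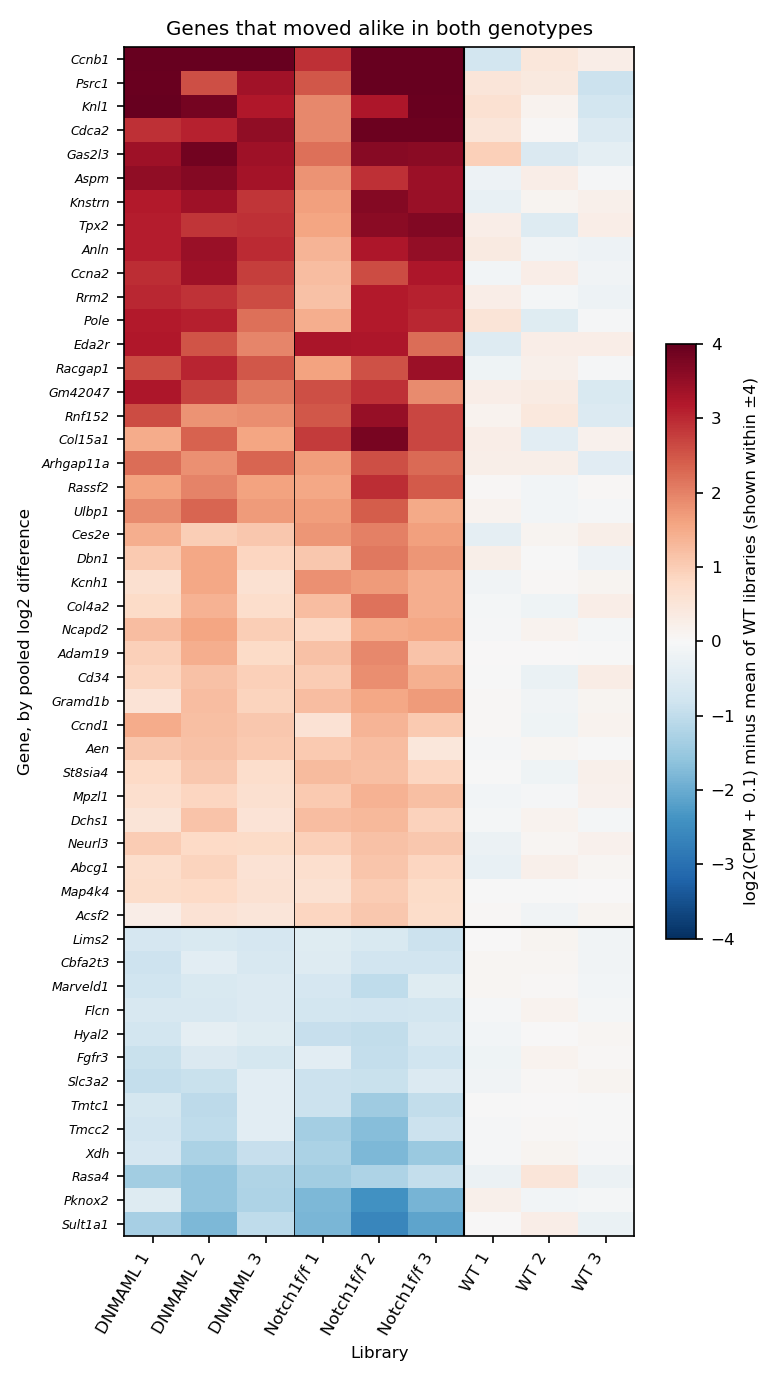
Heat map of the 50 genes that moved alike (rows, ordered by pooled log2 difference) in each of the 9 libraries (columns, DNMAML and Notch1f/f left of WT). Colour is log2(CPM + 0.1) minus the mean of the 3 WT libraries, limited to ±4; the upper 37 rows are red in all 6 Notch-deficient libraries and the lower 13 are blue, as the rule requires, and Notch1f/f replicate 1 is the palest of the 6 in most of the top rows.

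Genes of cell division were the list with the most members among those that moved alike. Of 50 tested genes of the mitosis and G2/M list, 8 rose in the pooled comparison and 0 fell, and all 8 moved alike: Ccnb1, Knl1, Aspm, Tpx2, Anln, Ccna2, Racgap1 and Ncapd2. The median pooled log2 difference of the list was 3.11, against 0.003 over all genes, with 3.08 in DNMAML and 3.11 in Notch1f/f. All 50 members had positive differences, where 50.4% of all genes did. In 42 the 6 Notch-deficient libraries lay above the 3 WT libraries, where 3.33% of all genes did. The count of 8 became 0 on leaving out WT replicate 1 or 2, 1 on leaving out WT replicate 3, 5 on leaving out DNMAML replicate 1 and 40 on leaving out Notch1f/f replicate 1, while the median stayed between 2.86 and 3.33 whichever library was left out. DESeq2 called 46 of the 50 and limma-voom 0.

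Aspm (chr1:139382510-139421829, GRCm39), a protein of the spindle poles, had 19.5, 21.4 and 16.95 CPM in DNMAML libraries, 5.82, 12.8 and 17.9 CPM in Notch1f/f libraries and 1.35, 1.92 and 1.53 CPM in WT libraries. The lowest Notch-deficient library, Notch1f/f replicate 1, was above the highest WT library, as the rule requires. The pooled log2 change was 3.26 (SE 0.37, adjusted p = 0.0166), with 3.59 in DNMAML and 2.92 in Notch1f/f. Aspm was the only one of the 64 genes that also passed in DNMAML alone, where 1 of all genes tested rose (0.00513%). In Notch1f/f alone 60 of the 64 passed, where 0.513% of all genes rose and 0.323% fell.

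Promoter sequences are printed for the 4 alike genes with the smallest p that RefSeq holds, since genes that move together can be read for shared letters. RefSeq (GRCm38.p6) had a promoter for 37 of the 50 alike genes. The other 3 genes shown beside Aspm are described further on. Each line gives the 250 bases before the start, 5′ to 3′ on the strand of the gene, and capitals mark, on either strand, the CCAAT box, the cell cycle letters TTTGAA or else TTCGAA, the E2F-like letters TTCCCGC or else TTGGCGC, the RBPJ letters TGGGAA and the E-box letters CACGTG. Aspm lies on the plus strand at chr1:139454523-139454772, and the others on the minus strand, Sult1a1 at chr7:126676419-126676668, Mpzl1 at chr1:165634542-165634791 and Neurl3 at chr1:36273426-36273675.
Aspm: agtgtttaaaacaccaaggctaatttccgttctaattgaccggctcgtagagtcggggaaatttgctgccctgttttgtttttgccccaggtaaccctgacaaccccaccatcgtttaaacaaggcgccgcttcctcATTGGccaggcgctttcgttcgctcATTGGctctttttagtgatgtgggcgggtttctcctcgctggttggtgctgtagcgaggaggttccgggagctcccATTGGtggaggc
Sult1a1: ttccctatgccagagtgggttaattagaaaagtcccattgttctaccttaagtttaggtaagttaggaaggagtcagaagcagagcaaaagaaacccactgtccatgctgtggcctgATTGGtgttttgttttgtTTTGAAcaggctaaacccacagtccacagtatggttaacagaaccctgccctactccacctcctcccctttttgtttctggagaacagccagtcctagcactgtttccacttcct
Mpzl1: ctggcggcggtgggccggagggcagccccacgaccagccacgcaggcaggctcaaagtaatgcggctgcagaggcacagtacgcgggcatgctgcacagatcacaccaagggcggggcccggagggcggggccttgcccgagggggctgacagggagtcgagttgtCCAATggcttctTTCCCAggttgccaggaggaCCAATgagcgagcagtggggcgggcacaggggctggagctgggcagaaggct
Neurl3: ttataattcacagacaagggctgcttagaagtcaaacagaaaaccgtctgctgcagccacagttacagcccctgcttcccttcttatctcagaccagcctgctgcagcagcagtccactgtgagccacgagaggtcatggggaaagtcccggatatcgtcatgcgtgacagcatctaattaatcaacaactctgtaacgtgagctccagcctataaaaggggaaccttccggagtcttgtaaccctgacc

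Aspm holds CCAAT on the reverse strand (read as ATTGG above) 12, 88 and 113 bases before its start. Mpzl1 holds CCAAT at 52 and 84 bases and TGGGAA, the core of the RBPJ motif, in reverse at 72 bases. Sult1a1 holds CCAAT in reverse at 133 bases and TTTGAA at 115 bases, and Neurl3 holds none of these letters in this window. CCAAT, the box bound by NF-Y in many cell cycle promoters, was present in 15 of the 27 promoters of genes that rose alike (55.6%), in 30.0% of the 10 promoters of genes that fell alike, and in 35.7% of 11801 promoters of tested genes. The mitosis and replication lists had it in 73.2% of 71 promoters. TTTGAA or TTCGAA, the core letters of the cell cycle homology region, stood in 25.9% of rising and 30.0% of falling promoters, against 12.8% of all. The E2F-like letters TTCCCGC or TTGGCGC stood in 22.2% and 20.0%, against 9.68% of all. TGGGAA stood in 25.9% and 30.0%, against 21.0% of all, and CACGTG in 11.1% and 0%, against 7.99%. CCAAT in reverse and TTGGCGC can share the letters TTGG. These shares are descriptions with no test.

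Of the cyclins that drive the later cell cycle, Ccnb1 and Ccna2 rose. Ccnb1, the cyclin that with CDK1 starts mitosis, had 4.01, 4.59 and 4.42 CPM in DNMAML libraries and 1.16, 5.93 and 11.2 CPM in Notch1f/f libraries, against 0, 2 and 2 counts in WT libraries. Its fitted log2 change of 6.00 (SE 0.94) rests on those few WT counts. Ccna2, the cyclin of S phase and G2, had 12.1, 16.5 and 10.6 CPM in DNMAML libraries, 3.62, 9.57 and 14.8 CPM in Notch1f/f libraries and 1.35, 1.79 and 1.33 CPM in WT libraries, a log2 change of 2.89 (SE 0.45). Its span overlaps that of Exosc9, and the counting had no option for strand, so its value is uncertain.

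Genes of the spindle and the kinetochore, where chromosomes attach to it, formed the next set. Tpx2, which nucleates spindle microtubules, had 17.6, 14.4 and 15.1 CPM in DNMAML libraries, 5.86, 24.3 and 25.9 CPM in Notch1f/f libraries and 2.29, 1.28 and 2.29 CPM in WT libraries, a log2 change of 3.12 (SE 0.47). Knl1, a scaffold of the kinetochore, was at 2.46 to 12.6 CPM in the 6 Notch-deficient libraries and 0.306 to 0.936 CPM in WT libraries, a log2 change of 3.61 (SE 0.58). The spindle proteins Psrc1 and Knstrn rose by 3.85 and 3.25 (SE 0.69 and 0.48). Cdca2, which brings a phosphatase to chromatin as mitosis ends, rose by 3.51 (SE 0.58), and Ncapd2, a condensin subunit that compacts chromosomes, by 1.31 (SE 0.20). None of these 6 genes overlapped between the groups, as the rule for moving alike requires. In WT libraries Knl1, Psrc1 and Cdca2 were each under 1 CPM.

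Genes that act when the cell divides in the middle behaved likewise. Racgap1, which organises the central spindle, had 14.04, 18.8 and 12.6 CPM in DNMAML libraries, 6.89, 13.2 and 24.2 CPM in Notch1f/f libraries and 1.92, 2.56 and 2.14 CPM in WT libraries, a log2 change of 2.76 (SE 0.40, adjusted p = 0.0217). Anln, or anillin, a protein of the cleavage furrow, rose by 3.11 (SE 0.46), and Gas2l3, a linker of actin and microtubules, by 3.46 (SE 0.59). Arhgap11a rose by 2.22 (SE 0.39). Notch1f/f replicate 1 was the lowest of the 6 Notch-deficient libraries for Aspm, Ccnb1, Ccna2, Tpx2, Knl1, Racgap1 and Anln alike. It was above every WT library for each, as the rule requires.

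**Figure D2:**
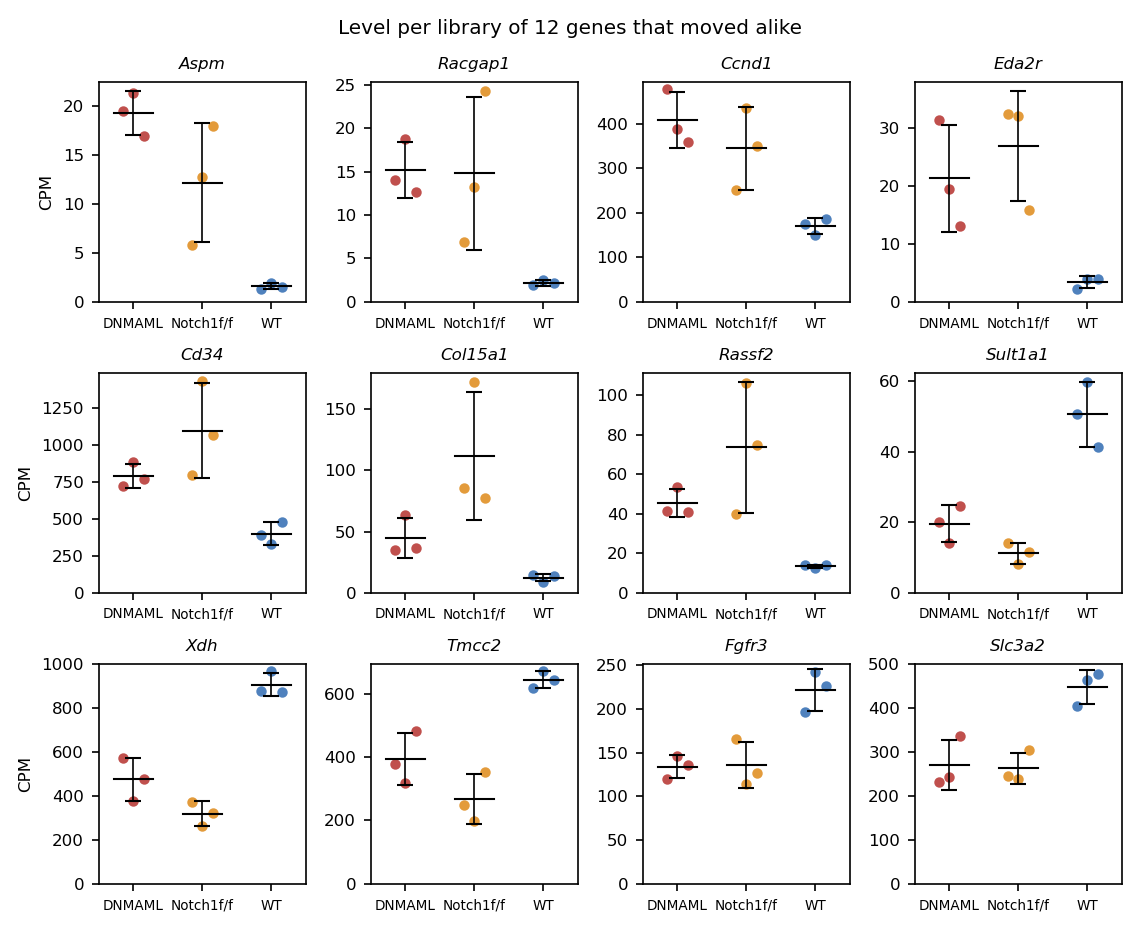
CPM in each library (points) of 12 genes that moved alike, with DNMAML and Notch1f/f left of WT; horizontal lines are means of 3 libraries and error bars are ± SD. Sult1a1, Xdh, Tmcc2, Fgfr3 and Slc3a2 are higher in WT and the other 7 are lower in WT, with no overlap in any panel, as the rule requires.

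Of 36 tested genes of the DNA replication and S phase list, 1 rose in edgeR, Rrm2, and 0 fell, with a median log2 difference of 0.90 and 35 of 36 positive. At an unadjusted p below 0.05 there were 20 higher and 0 lower, 11 higher and 0 lower by DESeq2, and 0 by limma-voom. Rrm2, the regulated subunit of the enzyme that makes deoxynucleotides, had 8.34, 7.69 and 6.25 CPM in DNMAML libraries, 2.24, 9.21 and 8.79 CPM in Notch1f/f libraries and 1.14, 0.897 and 0.816 CPM in WT libraries, a log2 change of 2.88 (SE 0.50). In 13 of the 36 the 6 Notch-deficient libraries lay above the WT libraries, against 3.33% of all genes tested. Pole, the catalytic subunit of DNA polymerase epsilon, is not on the list, and rose by 2.82 (SE 0.47). Mcm2, a subunit of the replicative helicase, had a pooled log2 difference of 0.93 (SE 0.24, adjusted p = 0.123), which did not pass.

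Mki67 and Top2a, used as markers of proliferation, missed the threshold. Mki67, the usual marker of cycling cells, had 122, 146 and 103 CPM in DNMAML libraries, 29.1, 138 and 184 CPM in Notch1f/f libraries and 5.51, 7.18 and 5.96 CPM in WT libraries. Its log2 difference of 4.27 (SE 0.64) had an adjusted p = 0.0534. Top2a, the topoisomerase that untangles chromosomes, had a difference of 4.10 (SE 0.75, adjusted p = 0.0827). The Notch1f/f libraries spread widely here, with replicate 1 of Mki67 at 29.1 CPM and replicate 3 at 184 CPM, and yet each of the 6 was above WT. Mki67, Top2a and Mcm2 were named after their values were seen.

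Ccnd1, cyclin D1, which drives cells from G1 into S phase and is also known as a Notch target, was the 1 member that rose of 27 tested Notch targets and of 15 tested D cyclins and CDK inhibitors, with 0 falling in either list. Ccnd1 had 478, 388 and 358 CPM in DNMAML libraries, 250.2, 435 and 349 CPM in Notch1f/f libraries and 176, 149 and 185 CPM in WT libraries, a log2 change of 1.14 (SE 0.18, adjusted p = 0.0260). Every Notch-deficient library was above every WT library, as the rule requires, the nearest being Notch1f/f replicate 1. Ccnd1 overlaps the gene LTO1. The median of the cyclin and inhibitor list was 0.04.

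The summed level of the mitosis list was 766, 824 and 701 CPM in DNMAML libraries, 300.0, 874 and 1082 CPM in Notch1f/f libraries and 160, 167 and 172 CPM in WT libraries. Leukocyte markers are given beside it. None of the 15 tested pan-leukocyte markers passed in edgeR (2 at an unadjusted p below 0.05, 1 in DESeq2, 0 in limma-voom), all 15 had positive differences with a median of 1.26, and their summed level was 360, 349 and 114 CPM in DNMAML libraries, 289, 316 and 350 CPM in Notch1f/f libraries and 193, 121 and 153 CPM in WT libraries. Of the 15 markers Lcp1 had the most counts in every library. Its raw counts were 3597, 4121 and 2326 in DNMAML, 4396, 5974 and 5019 in Notch1f/f and 2043, 1354 and 2331 in WT libraries. The sum, and the covariate made from it below, lean on this 1 gene and need not follow leukocyte content. DNMAML replicate 3 had a leukocyte sum of 114 CPM, near the lowest WT library at 121 CPM. The other Notch-deficient libraries were above every WT library in both sums, and a link between the sums was not tested. Ptprc, the gene of CD45 itself, had 27.95, 26.7 and 1.39 CPM in DNMAML libraries, 14.5, 4.96 and 1.58 CPM in Notch1f/f libraries and 4.99, 2.95 and 0.408 CPM in WT libraries, in cells sorted for the absence of CD45. With the leukocyte sum as a covariate, added after the data were seen, edgeR called 0 genes (490 higher and 347 lower at an unadjusted p below 0.05), all 64 genes kept their direction, and the median of the mitosis list was 3.01. In bulk RNA more cells of a type and more RNA per cell cannot be told apart, here and below.

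**Figure D3:**
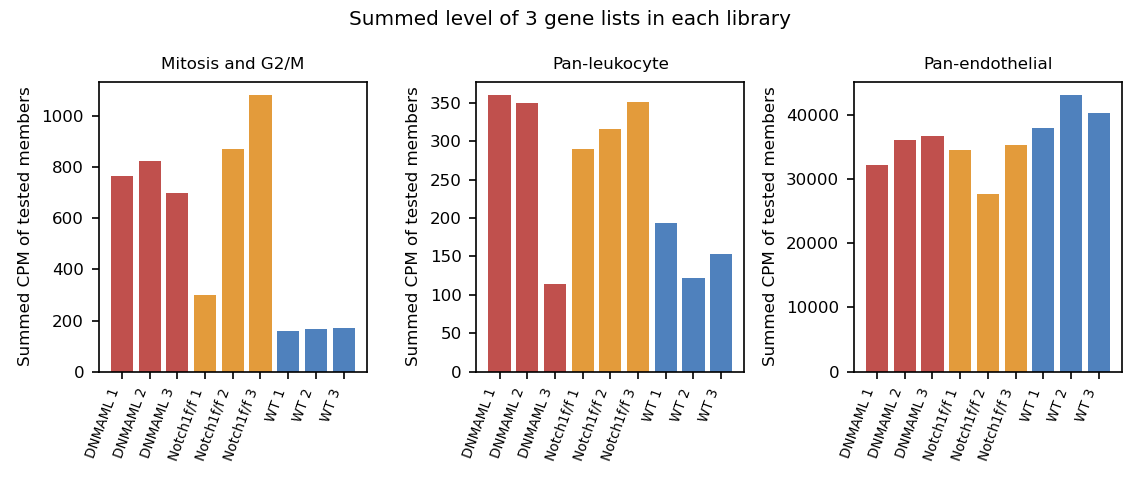
Bars give the summed CPM of the tested members of the mitosis, pan-leukocyte and pan-endothelial lists in each library, with DNMAML and Notch1f/f libraries left of WT libraries. The mitosis sum is at least 300.0 CPM in every Notch-deficient library and at most 172 CPM in WT. The leukocyte sum of DNMAML replicate 3, 114 CPM, is near the lowest WT sum of 121 CPM. The other Notch-deficient libraries exceed every WT library in the leukocyte sum. The pan-endothelial sum is at most 36630 CPM in Notch-deficient and at least 37930 CPM in WT libraries.

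Genes known to be switched on by p53, the transcription factor of the DNA damage response, formed a second group. Of 20 tested p53 targets 2 rose in edgeR, Eda2r and Aen, and 0 fell, with a median log2 difference of 0.55 and 17 positive. At an unadjusted p below 0.05 there were 12 higher and 1 lower, 9 higher and 0 lower by DESeq2, and 0 by limma-voom. In 10 of the 20 all Notch-deficient libraries lay above WT and in 1, Fas, all lay below, against 3.33% and 3.01% of all genes tested. Eda2r, a receptor of the tumour necrosis factor family, had 31.3, 19.5 and 13.1 CPM in DNMAML libraries, 32.4, 32.1 and 15.9 CPM in Notch1f/f libraries and 2.29, 3.97 and 3.98 CPM in WT libraries, a log2 change of 2.81 (SE 0.37, adjusted p = 0.0217). Aen, a nuclease linked to apoptosis, had 34.2, 35.9 and 33.3 CPM in DNMAML libraries, 33.5, 37.8 and 21.8 CPM in Notch1f/f libraries and 15.5, 16.9 and 15.7 CPM in WT libraries, a log2 change of 1.03 (SE 0.18). Every Notch-deficient library was above WT for both genes, as the rule requires, with Notch1f/f replicate 3 the lowest for Aen and DNMAML replicate 3 for Eda2r.

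Among the targets that did not pass, Zmat3 and Phlda3 had differences of 0.92 and 0.71 (adjusted p = 0.0531 and 0.0628). Cdkn1a, the p21 inhibitor of cyclin-dependent kinases, had 239, 119 and 137 CPM in DNMAML libraries, 197, 269 and 130.4 CPM in Notch1f/f libraries and 92.9, 72.04 and 103 CPM in WT libraries. Its difference of 1.02 (SE 0.29) did not pass (adjusted p = 0.191), nor did that of Bax, a pore-forming protein of apoptosis, at 1.00 (adjusted p = 0.0731). These 4 genes were named after their values were seen.

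Genes of the basement membrane and of sprouting came next. Of 38 tested matrix genes 2 rose in edgeR, Col4a2 and Col15a1, and of 37 tested tip cell and sprouting genes 2 rose, Cd34 and Col4a2, with 0 falling in either list. The medians were 0.19 and 0.26. DESeq2 called 5 matrix genes higher and 1 lower and 11 tip cell genes higher and 1 lower, and limma-voom called 0 in both lists. At an unadjusted p below 0.05 there were 8 higher and 1 lower matrix genes and 14 higher and 5 lower tip cell genes. Over all genes tested 10.7% passed at that level. Cd34, a surface sialomucin of endothelial tip cells and progenitors, had 720.4, 882 and 770.2 CPM in DNMAML libraries, 795, 1435 and 1066 CPM in Notch1f/f libraries and 389, 329 and 482 CPM in WT libraries, a log2 change of 1.22 (SE 0.19, adjusted p = 0.0260). Col15a1, a collagen of the outer basement membrane, had 34.7, 63.2 and 36.4 CPM in DNMAML libraries, 85.6, 172 and 77.7 CPM in Notch1f/f libraries and 14.6, 9.10 and 13.8 CPM in WT libraries. Its log2 change was 2.50 (SE 0.35), with 1.84 in DNMAML and 3.16 in Notch1f/f.

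Col4a2, a chain of collagen IV, had 1742, 2678 and 1653 CPM in DNMAML libraries, 2436, 4614 and 2816 CPM in Notch1f/f libraries and 962, 914 and 1227 CPM in WT libraries, a log2 change of 1.32 (SE 0.24, adjusted p = 0.0480). Its partner Col4a1, which lies head to head with it so that the 2 spans overlap, had 1.24 (SE 0.25) and did not pass (adjusted p = 0.0613). Notch1f/f replicate 2 was the highest library for Col15a1, Col4a2 and Cd34. Aplnr, the apelin receptor of sprouting and capillary cells, had a difference of 0.94 (adjusted p = 0.0520), just outside the threshold, where the genes just inside it had an adjusted p = 0.048. Aplnr and Col4a1 were named after their values were seen.

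Further genes that rose alike were on no list apart from Abcg1. Abcg1, which exports cholesterol from cells, had 134, 153 and 124 CPM in DNMAML libraries, 130.3, 178 and 149 CPM in Notch1f/f libraries and 66.8, 95.6 and 87.9 CPM in WT libraries, a log2 change of 0.79 (SE 0.14), the 1 member that rose of 24 tested lipid handling genes. Rnf152, a ubiquitin ligase of lysosomes, rose by 2.57 (SE 0.42), and Mpzl1, a glycoprotein that binds the phosphatase SHP-2, by 0.96 (SE 0.12). Neurl3, a ubiquitin ligase of the neuralized family, had 104, 90.1 and 87.4 CPM in DNMAML libraries, 98.7, 117 and 108 CPM in Notch1f/f libraries and 43.4, 54.6 and 57.6 CPM in WT libraries, a log2 change of 0.96 (SE 0.12, adjusted p = 0.0193). Its 6 Notch-deficient libraries lay between 87.4 and 117 CPM.

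The other 12 rising genes, like Arhgap11a above, fall outside the rule for named genes and are given to complete the set, with adjusted p between 0.0217 and 0.0443 in the edgeR test. Rassf2, a Ras-association protein, had 41.4, 53.6 and 41.2 CPM in DNMAML libraries, 39.9, 106 and 75.03 CPM in Notch1f/f libraries and 13.9, 12.6 and 14.1 CPM in WT libraries, a log2 change of 2.09. Ulbp1, a ligand of the killer cell receptor NKG2D, rose by 1.97 and Ces2e, a carboxylesterase, by 1.49. Dbn1 (drebrin), which binds actin, rose by 1.44, the potassium channel gene Kcnh1 by 1.33 and the metalloprotease gene Adam19 by 1.28. Gramd1b, which carries cholesterol between membranes, rose by 1.21, and St8sia4, which adds polysialic acid to proteins, by 0.99. Dchs1, a large cadherin that pairs with Fat4, rose by 0.96, the kinase gene Map4k4 by 0.76 and Acsf2, an acyl-CoA synthetase, by 0.67. The noncoding RNA Gm42047 rose by 2.60. Kcnh1 overlaps Hhat and Acsf2 overlaps Chad. Ulbp1, Adam19, Gramd1b, St8sia4 and Dchs1 overlap other genes of the annotation, so all of these are uncertain.

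The falling genes had smaller changes and belonged to varied functions. Sult1a1 (chr7:126272037-126275604, GRCm39), a sulfotransferase that conjugates phenols and whose promoter is printed above, had 20.1, 14.2 and 24.6 CPM in DNMAML libraries, 14.01, 8.15 and 11.6 CPM in Notch1f/f libraries and 50.5, 59.8 and 41.4 CPM in WT libraries, a log2 change of -1.77 (SE 0.21, adjusted p = 0.0166). Xdh, xanthine dehydrogenase, which makes urate, had 574, 378 and 476 CPM in DNMAML libraries, 375, 263 and 321 CPM in Notch1f/f libraries and 878, 969 and 876 CPM in WT libraries, a log2 change of -1.22 (SE 0.15, adjusted p = 0.0166). Both were lowest in Notch1f/f replicate 2, and every Notch-deficient library was below every WT library, as the rule requires. Sult1a1 overlaps Sgf29 and Xdh overlaps a further gene of the annotation, so both are uncertain.

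Regulators of transcription and signalling were among them. Pknox2, a homeodomain transcription factor, had 37.6, 17.98 and 22.98 CPM in DNMAML libraries, 15.3, 9.92 and 14.7 CPM in Notch1f/f libraries and 62.1, 49.3 and 50.6 CPM in WT libraries, a log2 change of -1.53 (SE 0.22). Cbfa2t3, a transcriptional corepressor known from blood and endothelial cells, fell by 0.65 on the log2 scale (SE 0.12). Rasa4, which switches Ras off, fell by 1.33 (SE 0.19), and the fibroblast growth factor receptor gene Fgfr3, with 119, 146 and 136 CPM in DNMAML libraries, 165, 114 and 127 CPM in Notch1f/f libraries and 196, 242 and 226 CPM in WT libraries, by 0.72 (SE 0.13). Flcn, or folliculin, which relays amino acid supply to mTORC1, fell by 0.68 (SE 0.11), with all 6 Notch-deficient libraries between 32.5 and 37.4 CPM and WT libraries between 51.6 and 60.2 CPM. Its 3 Notch1f/f libraries lay within 1 CPM of each other.

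The rest act at the cell surface, in membranes or in metabolism. Slc3a2, the heavy chain of amino acid transporters, had 233, 242 and 336 CPM in DNMAML libraries, 245, 240.0 and 304 CPM in Notch1f/f libraries and 405, 464 and 479 CPM in WT libraries, a log2 change of -0.75 (SE 0.14). Tmcc2, a membrane protein, was the 1 member that fell of 28 tested aerocyte markers, with 0 rising and a list median of -0.31. Tmcc2 had 379.7, 319.6 and 482 CPM in DNMAML libraries, 249.6, 199 and 353 CPM in Notch1f/f libraries and 619, 671 and 644 CPM in WT libraries, a log2 change of -0.99 (SE 0.17). Aerocytes are the capillary cells specialised for gas exchange. Tmtc1, which adds mannose to cadherins, fell by 0.88, the hyaluronidase gene Hyal2 by 0.68, Marveld1 by 0.67 and Lims2, an adaptor of focal adhesions, by 0.65.

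The Notch pathway itself contributed 1 gene to the 64, Ccnd1 among its targets, and none of its receptors, ligands or core proteins. Of 21 tested receptors and core genes and of 11 tested ligands and Fringe genes, 0 rose and 0 fell in edgeR, with medians of -0.07 and -0.14. At an unadjusted p below 0.05 there were 6 and 2, where 10.7% of all genes tested passed. DESeq2 called 5 and 0, all lower, and limma-voom 0 and 0. Notch3, the receptor of mural cells, had 84.2, 43.1 and 80.1 CPM in DNMAML libraries, 15.3, 18.1 and 25.6 CPM in Notch1f/f libraries and 115, 119 and 69.8 CPM in WT libraries, a log2 difference of -1.45 (SE 0.25, adjusted p = 0.0531; called in DESeq2, not in limma-voom). The mural cell marker list, which holds Notch3 and Heyl themselves, had a median of -0.20 in DNMAML and -1.68 in Notch1f/f with 21 of 25 members negative in the pooled comparison and 0 passing in edgeR, and its part in the values of Notch3 and of the target Heyl below was not tested. Notch1 had a pooled difference of -1.63 (SE 0.45, adjusted p = 0.212), carried by Notch1f/f at -3.17 with DNMAML at -0.09. Notch2 had -0.61 (adjusted p = 0.132), while Notch4 and the partner Rbpj had 0.10 and -0.03.

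Of 27 tested Notch targets 16 had negative differences, with a median of -0.17. Beside the 1 that rose in edgeR there were 4 higher and 11 lower at an unadjusted p below 0.05, 3 higher and 4 lower by DESeq2, and 1 higher by limma-voom. Efnb2, the arterial ephrin, had 552, 761 and 812 CPM in DNMAML libraries, 561, 355 and 587 CPM in Notch1f/f libraries and 1036, 1036 and 1069.6 CPM in WT libraries. Its difference of -0.81 (SE 0.17) had an adjusted p = 0.0590, although no Notch-deficient library reached the WT level; DESeq2 called it (adjusted p = 0.000427) and limma-voom did not (adjusted p = 0.0856). Hes1, the best-known target, had 58.6, 44.04 and 93.5 CPM in DNMAML libraries, 40.5, 36.1 and 78.98 CPM in Notch1f/f libraries and 126, 79.03 and 139.7 CPM in WT libraries, a difference of -0.98 (SE 0.32, adjusted p = 0.281) with overlap between the groups. DESeq2 called Hes1 (adjusted p = 0.0271) and limma-voom did not (adjusted p = 0.296). The other Hairy-related repressors Hey1, Hey2 and Heyl had -0.43, -0.77 and -0.99 (adjusted p = 0.383, 0.419 and 0.211). The ligands Dll4 and Jag1 had -0.34 and -0.33 (adjusted p = 0.385 and 0.261). Besides Efnb2, the targets Jag1, Gja5 and Flt1 were lower in all 6 Notch-deficient libraries than in WT, and 2 targets were higher in all 6. Over all genes tested 3.01% were lower and 3.33% higher in this way.

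The genes called but not alike were 5 that rose and 9 that fell. Notch1f/f had the larger difference from WT in all 14, and for Rprl3 the genotypes had opposite signs. Pcdh17, a protocadherin, just missed the rule with a ratio of 0.499 between the smaller and the larger difference, where Acsf2, just inside it, had 0.508. Nr5a2, a nuclear receptor, had 1.24 in DNMAML and 2.84 in Notch1f/f, and Xaf1, an interferon-induced gene and the 1 called member of 39 tested interferon genes, had 0.23 and 1.06. Of the falling genes Spp1, which encodes osteopontin, had 13.7, 27.3 and 10.3 CPM in DNMAML libraries, 6.62, 6.29 and 6.09 CPM in Notch1f/f libraries and 29.3, 43.1 and 24.01 CPM in WT libraries, so that DNMAML replicate 2 overlapped WT. The transcription factor gene Sox5, the kinase gene Cdk18, the adaptor genes Pag1 and Grb14, the calcium channel gene Cacna1c and the chemerin receptor gene Ccrl2 had DNMAML differences of -0.48 to -0.80 and Notch1f/f differences of -1.08 to -2.44. Apart from Xaf1 and Rprl3 the genes of this paragraph that are not alike lie outside the rule for named genes.

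**Figure D4:**
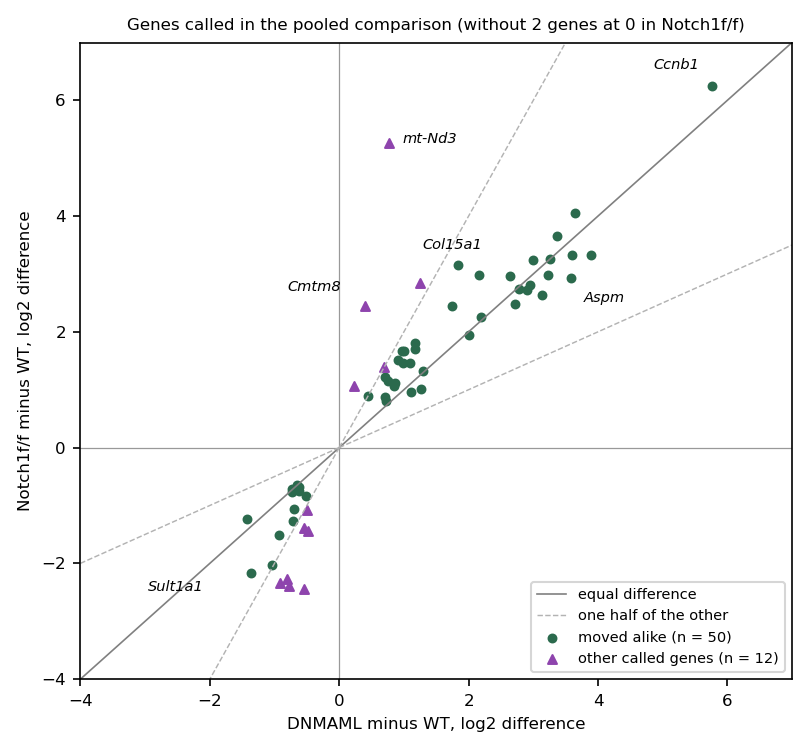
Log2 difference from WT in DNMAML (x axis) and in Notch1f/f (y axis) of the called genes, without Rprl3 and Klk1b22, which had 0 counts in Notch1f/f. The solid line marks equal differences and the dashed lines mark one 0.5 times the other; the 50 circles lie between the dashed lines, and mt-Nd3 and Cmtm8 lie far to the Notch1f/f side.

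The difference between the genotypes was tested directly. Of the 64 genes, 3 differed between Notch1f/f and DNMAML at an adjusted p below 0.05 over all genes, and none of the 50 alike genes did. The rule for moving alike leaves out genes with a large gap between the genotypes, so that absence is largely fixed by it. Over all genes tested 2 were higher (0.0103%) and 2 lower (0.0103%). At an unadjusted p below 0.05 29 of the 64 differed. The share of all genes tested that did so was not counted, so 29 cannot be read as many or few. A miss does not show that the genotypes act alike. mt-Nd3, a mitochondrial subunit of respiratory complex I, had 3.21, 1.30 and 4.46 CPM in DNMAML libraries, 54.2, 79.8 and 71.03 CPM in Notch1f/f libraries and 1.72, 1.03 and 2.50 CPM in WT libraries, and is uncertain because of a near-identical nuclear copy. Cmtm8, a membrane protein of the MARVEL family, had 7.62, 10.4 and 8.00 CPM in DNMAML libraries, 35.2, 29.9 and 42.3 CPM in Notch1f/f libraries and 6.76, 5.00 and 7.85 CPM in WT libraries. Rprl3, a small RNA gene with copies, had 4.93, 14.5 and 11.8 CPM in DNMAML libraries, 0 counts in each Notch1f/f library and 11.02, 7.31 and 6.93 CPM in WT libraries. Against a floor of 3 counts per library Rprl3 was at least 71.6-fold lower in Notch1f/f than in DNMAML and at least 57.9-fold lower than in WT. Klk1b22, a kallikrein with near-identical relatives, was also at 0 in Notch1f/f, at least 26.0-fold lower than in WT, with 5.61, 1.10 and 1.90 CPM in DNMAML libraries and 3.02, 5.90 and 2.45 CPM in WT libraries. In DNMAML each of these 4 genes overlapped WT.

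**Figure D5:**
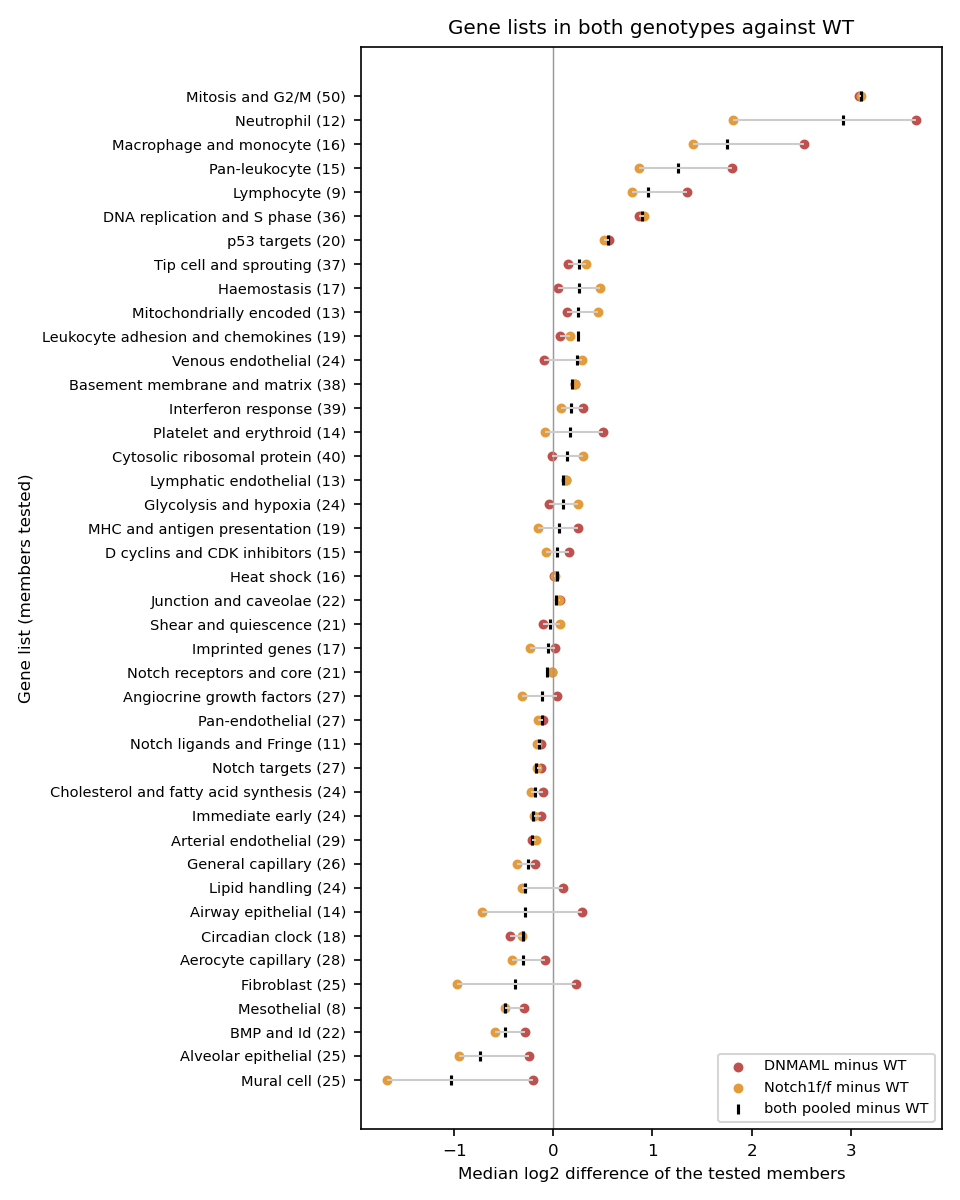
Median log2 difference from WT of the tested members of 42 gene lists, in DNMAML (red points), in Notch1f/f (orange points) and in both pooled (black ticks). The mitosis list stands at 3.08 in DNMAML and 3.11 in Notch1f/f, while the mural cell list stands at -0.20 and -1.68.

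Lists of endothelial identity had small medians and next to no called members. Beside the unadjusted counts given here, 10.7% of all genes tested passed at that level. Pan-endothelial genes had a median of -0.12 with 0 of 27 passing in edgeR (13 at an unadjusted p below 0.05; 1 higher and 4 lower in DESeq2; 0 in limma-voom), and 7 members were lower and 2 higher in all 6 Notch-deficient libraries than in WT, where 3.01% and 3.33% of all genes tested were. General capillary markers had a median of -0.25 with 0 of 26 passing (13 unadjusted; 1 higher and 3 lower in DESeq2; 0 in limma-voom), and 8 lower and 1 higher in all 6. Vwf, which encodes von Willebrand factor, had 881, 668 and 1044 CPM in DNMAML libraries, 891, 999.5 and 1364 CPM in Notch1f/f libraries and 1549.7, 1844 and 1883 CPM in WT libraries, a difference of -0.86 (SE 0.17, adjusted p = 0.0531). Genes of the BMP pathway, which keeps vessels quiescent, had a median of -0.48 with 17 of 22 negative and 0 passing (14 unadjusted; 1 higher and 6 lower in DESeq2; 0 in limma-voom). Its receptor gene Acvrl1 had 1909.8, 2075 and 2218 CPM in DNMAML libraries, 1885, 1345 and 2126 CPM in Notch1f/f libraries and 2382, 2935 and 2663 CPM in WT libraries, a difference of -0.47 (adjusted p = 0.224). Arterial, venous and lymphatic markers had medians of -0.22, 0.24 and 0.10, and 0 passed in each in edgeR (12, 7 and 2 unadjusted; 5, 3 and 2 in DESeq2; 0 in limma-voom).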

How the data were processed

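The authors deposited 1 table of raw counts per gene, whole numbers with no normalization, from featureCounts 2.0.1 on Ensembl release 107 (GRCm39), per the file headers. STAR 2.7 was the aligner named by the submitters' processing notes, which give mm10, another build. The kit is strand-specific per the labels, while the command in the header sets nothing for strand, read pairs or multi-mapping reads, so overlapping genes (33 of the 64 called) and near-identical copies are uncertain. Only some of these 33 overlaps are named above. Between 76.6% and 89.0% of counts under 200 in a library were even, so many fragments may count as a pair. Symbols came from the GRCm38 annotation for 52073 of 56748 identifiers; gene coordinates are GRCm39 and promoters GRCm38.p6.

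Genes were kept by filterByExpr (19486), scaled by TMM and tested with edgeR 4.0.16 in R 4.3.3, with a robust quasi-likelihood fit to all 9 libraries, genotype as the only term and 6 residual degrees of freedom. The contrast is the mean of the DNMAML and Notch1f/f coefficients minus WT, and the threshold was an adjusted p of 0.05 (Benjamini-Hochberg over all genes). An SE is the absolute log2 difference divided by the square root of F. Libraries were made in 1 batch, per the labels. Alternatives used DESeq2 1.42.0, limma 3.58.1, other scaling and filters, covariates, a block and each library left out. On simulated counts with known changes the test recovered 23.4% of 2-fold and 57.1% of 4-fold changes among 18519 genes, with 7 false calls among 81. Floors cover counting error only.

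Named genes are the 15 largest alike changes each way with a mean of at least 1 CPM and a symbol that is no clone or model name, the called members of 43 lists (up to 4) or else up to 2 with the highest mean CPM, the Notch genes given, up to 5 called genes with the smallest p between genotypes, and 4 genes for promoters. The members, the lists and these rules were chosen with earlier results of these data known.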

Additional observations from a re-analysis of the deposited data

Results flagged for a closer look

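The 64 called genes and the Notch genes given were searched for single libraries far from the rest. In 4 genes a library lay far from the other 5 of the 6 Notch-deficient libraries, by a gap that took most of the range (Dixon's 95% limit for 6 samples). Chance alone gives this in about 1 of 20 groups, which over this many genes is a few. Aen was at 21.8 CPM in Notch1f/f replicate 3, Col15a1 at 172 CPM in Notch1f/f replicate 2, Klk1b22 at 5.61 CPM in DNMAML replicate 1 and Spp1 at 27.3 CPM in DNMAML replicate 2. Aen and Col15a1 were above every WT library in all 6, as the rule for moving alike requires. In 3 genes the 2 genotypes differed from each other: the log2 difference of Notch1f/f minus DNMAML was 4.50 for mt-Nd3 (edgeR quasi-likelihood test, adjusted p = 0.00943) and 2.05 for Cmtm8 (adjusted p = 0.0101). For Rprl3 the fitted difference was -10.78 (adjusted p = 0.00309), which depends on the prior count because Notch1f/f libraries had 0 counts, so the bound given above is the value to read.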

How the results depend on the processing

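The directions of all 64 called genes held in all 21 alternatives, which their choice from these same libraries largely fixed. The median of all genes shifted by under 0.02 (log2), while the counts of calls did not hold. The counts of pooled higher and lower and of alike higher and lower genes, 42, 22, 37 and 13, became 556, 508, 248 and 121 with no filter, 420, 262, 279 and 141 with DESeq2, and 6, 4, 5 and 4 with limma-voom. Treating the 6 libraries as 1 group gave 7 lower and 7 alike lower. A Y-linked covariate gave 110 higher, 38 lower and 89 alike higher. Covariates added after the data were seen gave 151, 97, 125 and 57 for immediate early genes and 0, 0, 0 and 0 for leukocyte markers. With 1 library left out the 4 counts ranged over 0 to 222, 0 to 77, 0 to 189 and 0 to 36. RLE scaling, a stricter filter, a fit without robust dispersion and halved counts (added after the data were seen) left each count within 1.5 times. The cause of these shifts was not tested. Deviations of same-numbered DNMAML and WT libraries had correlations of 0.383, 0.431 and 0.214, against -0.364 to 0.0648 across numbers. For Notch1f/f and WT they were -0.185, -0.0485 and 0.23, against -0.4 to 0.436 across numbers. The highest of these joined Notch1f/f replicate 1 and WT replicate 2. The numbers were therefore not taken to pair the samples. With the number as a replicate block 57 genes rose, 37 fell, and 48 and 16 moved alike. In the simulated counts 23.4% of 2-fold changes were recovered. That share depends on the levels and number of the genes chosen to change, so it need not hold for these data.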

Other observations

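Mural cell markers, of pericytes and smooth muscle, had a pooled median log2 difference of -1.03 with 21 of 25 negative and 0 passing in edgeR (14 at an unadjusted p below 0.05; 1 higher and 8 lower in DESeq2; 0 in limma-voom). The median was -0.20 in DNMAML and -1.68 in Notch1f/f, and the summed level of the list was 1244 to 2692 CPM in the 6 Notch-deficient libraries and 2140 to 2978 CPM in WT libraries. Alveolar epithelial markers had a median of -0.74 with 25 of 25 negative and 0 passing (1 unadjusted, 0 in DESeq2 and limma-voom). Sftpc, a surfactant protein, had 580.2, 67.5 and 829 CPM in DNMAML libraries, 65.9, 177 and 552 CPM in Notch1f/f libraries and 702, 169 and 1876 CPM in WT libraries, so the groups overlapped widely. Fibroblast, mesothelial and airway markers had medians of -0.38, -0.48 and -0.29, and 0 of 25, 8 and 14 passed (2, 0 and 0 unadjusted; 0 in DESeq2 and limma-voom). Blood cell lists beside the pan-leukocyte one had medians of 1.76 for macrophages and monocytes, 2.92 for neutrophils, 0.96 for lymphocytes and 0.16 for platelets and red cells, with 0 passing in edgeR (2, 3, 3 and 0 unadjusted; 0, 2, 2 and 0 in DESeq2; 0 in limma-voom).

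Nr1d1, a repressor of the circadian clock, had 137, 60.1 and 138 CPM in DNMAML libraries, 113, 156 and 143 CPM in Notch1f/f libraries and 439, 331 and 227 CPM in WT libraries, a pooled log2 difference of -1.42 (SE 0.28) that did not pass (edgeR quasi-likelihood test, adjusted p = 0.0731). The clock list had a median of -0.30, and the labels do not state the time of day of each sort. At an unadjusted p below 0.05 in edgeR 5 of 18 clock genes passed, and 3 in DESeq2. Medians were 0.26 for haemostasis, 0.25 for leukocyte adhesion and chemokines, -0.12 for angiocrine factors, -0.04 for shear and quiescence and 0.03 for junctions and caveolae. In that order 6 of 17, 5 of 19, 10 of 27, 10 of 21 and 6 of 22 passed unadjusted in either direction (5, 2, 4, 2 and 3 in DESeq2). Medians were -0.28 for lipid handling, -0.18 for cholesterol and fatty acid synthesis, 0.09 for glycolysis and hypoxia, 0.17 for interferon response and 0.06 for antigen presentation. Of these 13 of 24, 5 of 24, 2 of 24, 5 of 39 and 1 of 19 passed unadjusted (7, 1, 0, 2 and 0 in DESeq2). Immediate early, heat shock, ribosomal protein, mitochondrially encoded and imprinted genes had medians of -0.20, 0.04, 0.14, 0.25 and -0.06. Here 0 of 24, 0 of 16, 0 of 40, 2 of 13 and 7 of 17 passed unadjusted (0, 0, 0, 1 and 4 in DESeq2). Over all genes tested 10.7% passed at that level. Abcg1, Xaf1 and mt-Nd3 were the only members of the lists in this paragraph that passed the adjusted threshold in edgeR. The summed immediate early level was 3444 to 10500 CPM in the 6 Notch-deficient libraries and 4440 to 13730 CPM in WT libraries, a spread within each group. The lowest library of each group was DNMAML replicate 2 at 3444 CPM, Notch1f/f replicate 1 at 4515 CPM and WT replicate 2 at 4440 CPM.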
